A study of Mus musculus with 2 samples.

Results

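A set of 10 genes of endoplasmic reticulum protein folding was followed across the cell classes of mouse bone marrow, selected by symbol from the 32286 features of 2 droplet single-cell libraries. All 10 were found: Hspa5, Hsp90b1, Calr, Pdia4, Pdia6, Sdf2l1, Dnajb9, Herpud1, Ssr4 and Xbp1. The control library came from primary bone marrow cells of the genotype Mx1Cre+/-;Rosa26+/+. The MYC library, called MYC marrow beside its values, came from the genotype Mx1Cre+/-;Rosa26LSL-MYC/LSL-MYC, in which a MYC transgene at the Rosa26 locus is silenced by a stop cassette until Cre removes it. Both genotypes carried Mx1-Cre, a recombinase driven by an interferon-inducible promoter that is active in blood stem cells and in other tissues. Age, the time since Cre induction and the number of animals per library are not given in the sources used here. With 1 library per group no difference between the libraries could be tested, no p-value is given, and genotype and library cannot be told apart. All intervals are 95% and cover counting error only.

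Secreted and membrane proteins are threaded into the endoplasmic reticulum through a translocon, folded by chaperones of the Hsp70 and Hsp90 families, glycosylated, and linked by disulfide bonds, while misfolded chains are sent back to the cytosol for degradation. When folding capacity falls short, the unfolded protein response raises the transcription of these factors through the sensors Ire1, Perk and Atf6, and Ire1 acts by splicing the Xbp1 messenger RNA. In bone marrow the pathway is best known from plasma cells, which need Xbp1 and a large endoplasmic reticulum to secrete antibody, and from granulocyte progenitors and mast cells, which fill granules with proteases.

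Part of the response acts through promoter elements, so the promoters of the genes were searched for those letters. The window was 250 bases before to 50 after the RefSeq transcript start on GRCm38.p6, where all 10 genes had an entry, and both strands were read. The endoplasmic reticulum stress element, CCAAT and CCACG with 9 free bases between them, is the textbook site of NF-Y with Atf6. It was present in Hspa5, Hsp90b1, Calr and Pdia6, that is in 4 of the 10 genes, against 39 of 32851 promoters (0.119%) in the whole table. The table counts promoters, which belong to 27025 genes. Of 59 other pathway genes with an entry, 5 held the element. Because it is a textbook site of this response, matches in known response genes are a description and not a test. The shorter form of the element, ATTGG and CCACG with 1 free base between them, was present in Herpud1, which did not hold the longer form, and in 12 promoters of the table (0.0365%). The letters TGACGTGG, a core bound by Xbp1 and Atf6, were in none of the 10 windows and in 222 promoters of the table (0.676%). The matches follow, each written in the direction of the element, with the fixed letters in capitals and the free positions in lower case.
Hspa5: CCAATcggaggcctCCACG
Hsp90b1, upstream match: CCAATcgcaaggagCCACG
Hsp90b1, downstream match: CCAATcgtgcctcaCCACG
Calr: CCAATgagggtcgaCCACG
Pdia6: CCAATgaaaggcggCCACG
Herpud1: ATTGGgCCACG
The matched bases began 65 bases before the start in Hspa5, 212 and 107 before it in Hsp90b1, 162 before it in Calr, 98 before it in Pdia6 and 52 before it in Herpud1. The downstream match of Hsp90b1 and that of Calr lie on the opposite strand to the gene. The whole windows are shown for the genes on which the results below turn most: Hspa5 (chr2:34771840-34772139, plus strand), Hsp90b1 (chr10:86705395-86705694, minus strand) and Ssr4 (chrX:73786773-73787072, plus strand). Capitals mark the element, and Ssr4 has none.
Hspa5: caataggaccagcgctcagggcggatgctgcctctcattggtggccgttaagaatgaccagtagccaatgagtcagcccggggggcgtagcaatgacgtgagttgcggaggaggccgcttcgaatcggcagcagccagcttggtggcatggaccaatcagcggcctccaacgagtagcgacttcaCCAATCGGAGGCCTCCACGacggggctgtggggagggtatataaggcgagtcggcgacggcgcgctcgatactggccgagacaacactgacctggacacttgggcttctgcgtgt
Hsp90b1: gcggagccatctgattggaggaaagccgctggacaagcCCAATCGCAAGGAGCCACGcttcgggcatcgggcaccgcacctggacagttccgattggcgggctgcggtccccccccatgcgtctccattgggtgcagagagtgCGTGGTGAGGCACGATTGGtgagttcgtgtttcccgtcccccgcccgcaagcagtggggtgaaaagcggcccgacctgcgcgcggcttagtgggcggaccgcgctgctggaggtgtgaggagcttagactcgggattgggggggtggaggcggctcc
Ssr4: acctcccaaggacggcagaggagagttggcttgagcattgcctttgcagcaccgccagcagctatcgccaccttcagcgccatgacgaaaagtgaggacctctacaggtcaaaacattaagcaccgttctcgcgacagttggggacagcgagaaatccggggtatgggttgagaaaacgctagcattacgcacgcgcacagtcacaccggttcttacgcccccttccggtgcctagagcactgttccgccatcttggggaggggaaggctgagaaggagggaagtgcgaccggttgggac

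The depth was 131884603 UMIs (unique molecular identifiers, which count RNA molecules) over 17073 barcodes for the control and 110012176 over 14496 for MYC marrow. Of these barcodes 14903 and 12540 passed as cells, with medians of 5343 and 6016 UMIs. The libraries shared 97 barcodes. The MYC feature, whose sequence is not stated, drew 0 UMIs in the control and 289 in MYC marrow. The 10 genes together took 0.181% of the UMIs of kept cells in the control and 0.161% in MYC marrow. Cells were sorted into 17 classes by marker genes, with neither the 10 genes nor the other pathway genes used for clustering, and a class name below means that the cells resemble that type. Of the kept cells, 17.1% in the control and 21.5% in MYC marrow stayed without a name, mostly cells of few UMIs. Classes with at least 50 cells in both libraries numbered 15. B cell progenitor-like cells (490 and 20) and macrophage-like cells (18 and 634) were not compared between the libraries. In plasma cell-like cells (245 and 86) all 11 markers were at least 2-fold above other cells in both libraries, and in granulocyte progenitor-like cells (585 and 533) all 6 were. S100a8, a gene of neutrophils, was counted in every class. It stood at 4438 CPM (counts per 1000000 UMIs of the class) in control plasma cell-like cells and 6242 in those of MYC marrow, against 119557 and 112364 in immature neutrophil-like cells. Immunoglobulin genes took 37.2% and 37.6% of the UMIs of plasma cell-like cells, and 0.129% and 0.0856% of those of T or NK cell-like cells.

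Plasma cell-like cells had the most folding gene RNA of the 15 classes compared, and every rank of a class given here is among those 15. The 10 genes summed to 7565 CPM there in the control and 6765 in MYC marrow, followed by basophil or mast cell-like cells with 5174 and 4072, and mature neutrophil-like cells came last with 432 and 396. By the median over single cells of the control the second place turned, with 2597 CPM in basophil or mast cell-like and 3548 in granulocyte progenitor-like cells. In MYC marrow these medians were 2938 and 2501. Against all other kept cells of the same library, 9 of the 10 genes were at least 2-fold higher in plasma cell-like cells in either library, where 5.3% of all genes tested in the control and 6.35% in MYC marrow were. Calr was the exception in both. The median of all genes tested was 1.31 lower on the log2 scale in control plasma cell-like cells and 1.14 lower in those of MYC marrow, classes in which immunoglobulin took the shares given above.

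Among the chaperones, Hspa5 (ENSMUSG00000026864, chr2:34771970-34777547, plus strand) encodes BiP, the Hsp70 chaperone of the endoplasmic reticulum, which also holds the stress sensors inactive. Its level in plasma cell-like cells was 1074 CPM in the control (interval 1046 to 1104) and 728 in MYC marrow, which was 3.32-fold and 2.91-fold above other cells. Hsp90b1 (ENSMUSG00000020048, chr10:86690209-86705509, minus strand) encodes Grp94, the Hsp90 chaperone that folds integrins and Toll-like receptors. It stood at 2831 CPM and 1586 CPM, 7.12-fold and 5.56-fold above other cells. Hspa5 and Hsp90b1 were thus highest in plasma cell-like cells in both libraries.

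Calr (ENSMUSG00000003814, chr8:84841850-84846934, minus strand) encodes calreticulin, which binds sugar chains on newly made glycoproteins and calcium. In the control it was highest in basophil or mast cell-like cells (1375 CPM, interval 1321 to 1432), then in granulocyte progenitor-like cells (1083), stem or multipotent progenitor-like cells (861) and plasma cell-like cells (636). In the MYC library it stood at 1007 CPM in basophil or mast cell-like, 682 in granulocyte progenitor-like, 1042 in stem or multipotent progenitor-like and 489 in plasma cell-like cells. In each library Calr was thus higher in the other 3 of these classes than in plasma cell-like cells.

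The disulfide isomerases differed from each other. Pdia4 (ENSMUSG00000025823, chr6:47796141-47813430, minus strand) had 486 CPM in control plasma cell-like cells and 450 in those of the MYC library, 12.3-fold and 13.9-fold above other cells, and the next class, basophil or mast cell-like cells, had 169 and 108. Pdia6 (ENSMUSG00000020571, chr12:17266545-17284770, plus strand), an isomerase that also acts on Ire1, was nearly level across 3 classes of the control: 311 CPM in basophil or mast cell-like, 289 in granulocyte progenitor-like and 269 in plasma cell-like cells, with overlapping intervals between neighbours. In the MYC library the same classes had 272, 235 and 339 CPM.

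Both co-chaperones of Hspa5 were high in plasma cell-like cells. Sdf2l1 (ENSMUSG00000022769, chr16:17130138-17132383, minus strand) encodes a protein that works with Hspa5 and Dnajb11 to keep client proteins from clumping. It stood at 153 CPM in the control (interval 142 to 164) and 250 in MYC marrow, and granulocyte progenitor-like cells came second with 127 and 159. Dnajb9 (ENSMUSG00000014905, chr12:44205559-44210326, minus strand) encodes ERdj4, a J protein that returns Hspa5 to Ire1 and so damps that sensor. It stood at 134 CPM and 65.0 CPM in plasma cell-like cells, 7.75-fold and 4.28-fold above other cells, while control granulocyte progenitor-like cells had 23.3 CPM, close to the 21.8 of their other cells.

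Herpud1, Ssr4 and Xbp1 act in degradation, translocation and transcription. Herpud1 (ENSMUSG00000031770, chr8:94386438-94395377, plus strand) encodes a membrane scaffold of the degradation complex. Its level in plasma cell-like cells was 344 CPM in the control and 418 in MYC marrow, 7.78-fold and 9.63-fold above other cells. Ssr4 (ENSMUSG00000002014, chrX:73787028-73790830, plus strand) encodes a subunit of the translocon-associated protein complex, and it stood at 651 CPM and 1764 CPM, 4.45-fold and 5.55-fold above other cells. Xbp1 (ENSMUSG00000020484, chr11:5520659-5525893, plus strand) encodes the transcription factor made by Ire1 splicing; these counts do not separate its spliced and unspliced forms. It stood at 987 CPM and 676 CPM, 10.2-fold and 7.53-fold above other cells. Plasmacytoid dendritic cell-like cells were second of the 15 classes for Dnajb9, Herpud1 and Xbp1 in the control, with 47.5, 129 and 216 CPM. Outside the 15, control B cell progenitor-like cells had 163 CPM of Herpud1, and the 18 macrophage-like cells 184 of Herpud1 and 252 of Xbp1. For Dnajb9 and Xbp1 their intervals overlapped those of the class ranked next, basophil or mast cell-like cells, and for Herpud1 that of megakaryocyte-like cells.

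**Figure D1:**
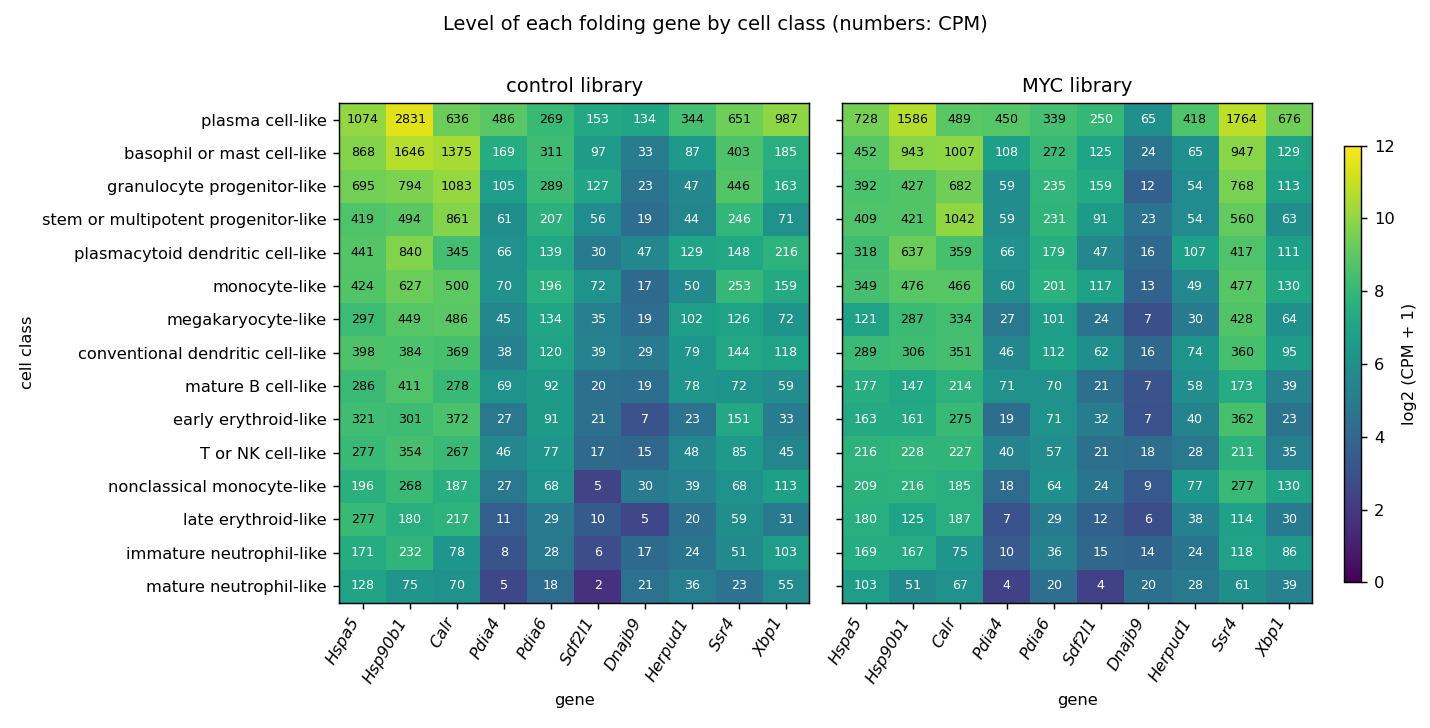
Heat maps of the level of the 10 genes (columns) in 15 cell classes (rows) of the control library (left) and the MYC library (right); the colour gives log2 (CPM + 1) and the printed number CPM. The top row, plasma cell-like cells, has the highest level of most genes but not of Calr, and mature neutrophil-like cells in the bottom row have 75 CPM of Hsp90b1 in the control against 2831 in plasma cell-like cells.

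Set against mature B cell-like cells (506 and 141), the class of the same lineage, all 10 genes were at least 2-fold higher in plasma cell-like cells in both libraries, where 5.03% of genes tested in the control and 11.3% in MYC marrow were. Xbp1 stood at 58.8 CPM in mature B cell-like and 987 in plasma cell-like cells of the control, and at 38.7 and 676 in MYC marrow, ratios of 16.8-fold and 17.5-fold. The smallest ratio was that of Calr, 2.29-fold and 2.28-fold. With immunoglobulin UMIs left out of the totals the ratios were larger, 26.4-fold for Xbp1 and 3.60-fold for Calr in the control.

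Not every plasma cell-like cell had the same amount. The summed level of the 10 genes in single cells had a median of 5685 CPM in the control, with 10% of cells below 3353 and 10% above 15236, and in the MYC library the median was 5445, with 10% below 3791 and 10% above 10631. Cells were split by the heavy chain with the most UMIs, which was mu in 176 control cells and 65 cells of the MYC library, gamma in 67 and 16, and alpha in 2 and 5. This split was made after the class levels were seen. Per 1000000 non-immunoglobulin UMIs, the 10 genes summed to 9845 in IgM cells of the control and 17309 in switched cells (gamma or alpha), which was 0.81 higher on the log2 scale. For MYC marrow the values were 9712 and 14446, and the difference was 0.57. Hsp90b1 was the furthest apart: 3217 in IgM and 7587 in switched cells of the control, and 1854 and 4732 in MYC marrow, log2 differences of 1.24 and 1.35. Herpud1 went the other way in the control, with 605 in IgM and 413 in switched cells, and in the MYC library 693 and 597 with an interval that spanned 0 (-0.48 to 0.04). Immunoglobulin took a similar share of the UMIs in both kinds of cell of the control, 38.0% in IgM and 35.5% in gamma cells. Cells of the same clone are not independent, and the clones were not counted.

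**Figure D2:**
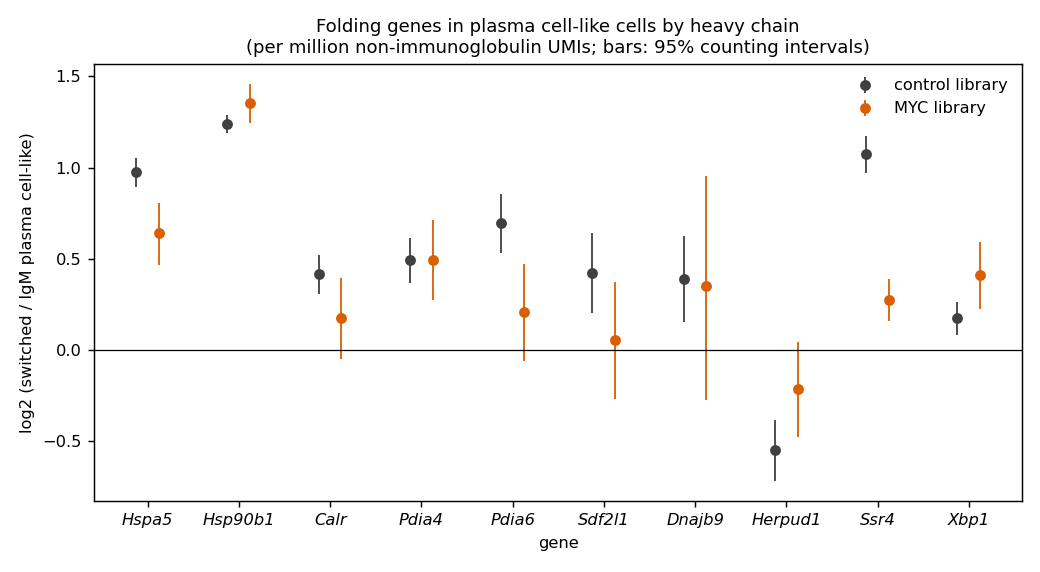
Log2 ratio of switched to IgM plasma cell-like cells for each gene (horizontal axis), per 1000000 non-immunoglobulin UMIs, in the control (dark) and MYC (orange) library; points are ratios of summed UMIs and bars 95% counting intervals. Hsp90b1 lies at 1.24 and 1.35, and Herpud1 is the gene below 0 in both libraries, at -0.55 and -0.22.

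Granulocyte progenitor-like cells, defined by genes of the primary granule proteases such as Elane and Mpo, shared a part of the plasma cell pattern. In the control 6 of the 10 genes were at least 2-fold above other cells there (Hspa5, Calr, Pdia4, Pdia6, Sdf2l1 and Ssr4), where 8.8% of genes tested were. MYC marrow had 4 (Calr, Pdia6, Sdf2l1 and Ssr4), where 5.62% of genes tested were. Sdf2l1 had the largest ratio in both, 127 against 30.1 CPM in the control (4.21-fold) and 159 against 53.5 in MYC marrow (2.97-fold). Xbp1 was 163 CPM against 129 in other control cells and 113 against 98.5 in MYC marrow, and Herpud1 was 47.1 against 57.3 and 53.6 against 49.5, each under 2-fold. These counts depend on which cells are kept and how they cluster: with only cells under 5% mitochondrial UMIs kept, they were 2 in the control and 0 in MYC marrow. The median mitochondrial share of this class was 4.94% in the control and 3.06% in MYC marrow, so that filter falls unevenly on the libraries.

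Folding genes were lower in immature neutrophil-like cells (2700 and 1972) than in progenitor-like cells. In the control 7 of the 10 genes were at least 2-fold lower in immature neutrophil-like cells, where 31.5% of genes tested were, and in the MYC library 8 were, where 24.3% were. Calr went from 1083 to 78.2 CPM in the control and from 682 to 74.7 in MYC marrow. Sdf2l1 went from 127 to 6.14 CPM and from 159 to 14.7, and Pdia4 from 105 to 7.73 and from 59.0 to 9.82. The summed level of Mpo, Elane, Prtn3 and Ctsg went from 28932 to 382 CPM in the control over the same step and from 27463 to 551 in MYC marrow. These genes are among the markers that named the progenitor-like class, so their lower level in the next class is built in. Xbp1 and Dnajb9 differed by less than 2-fold in both libraries, and Herpud1 in the control, where it went from 47.1 to 24.0 CPM against 53.6 to 24.2 in MYC marrow. Xbp1 went from 163 to 103 CPM and from 113 to 86.1, and Dnajb9 from 23.3 to 16.7 and from 12.4 to 13.7.

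The step to mature neutrophil-like cells (3563 and 3399) was smaller. Hsp90b1 and Sdf2l1 were at least 2-fold lower again in both libraries, with Ssr4 in the control and Pdia4 and Xbp1 in MYC marrow, so that 3 and 4 of the 10 genes passed where 26.2% of genes tested did in either library. Hsp90b1 went from 232 to 75.4 CPM in the control and from 167 to 51.1 in MYC marrow. Dnajb9 was higher in mature than in immature neutrophil-like cells, 21.0 against 16.7 CPM in the control and 20.5 against 13.7 in MYC marrow, and Herpud1 was too, 35.5 against 24.0 and 27.7 against 24.2. This depends on the make-up of the immature class: its cluster led by Ltf had 23.5 and 27.7 CPM of Dnajb9, above the mature class, while those led by Chil3 and by Inhba had between 5.62 and 8.45. For Herpud1 the cluster led by Ltf had 28.8 CPM in MYC marrow, also above the mature class. The mature class was filled by different clusters in the libraries: clusters led by Il1b and Ptgs2 or by Mmp8 and Cxcr2 held most of it in the control, and clusters led by Ifitm6 and Mmp8 or by Cstdc4 and Cxcl2 in MYC marrow.

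**Figure D3:**
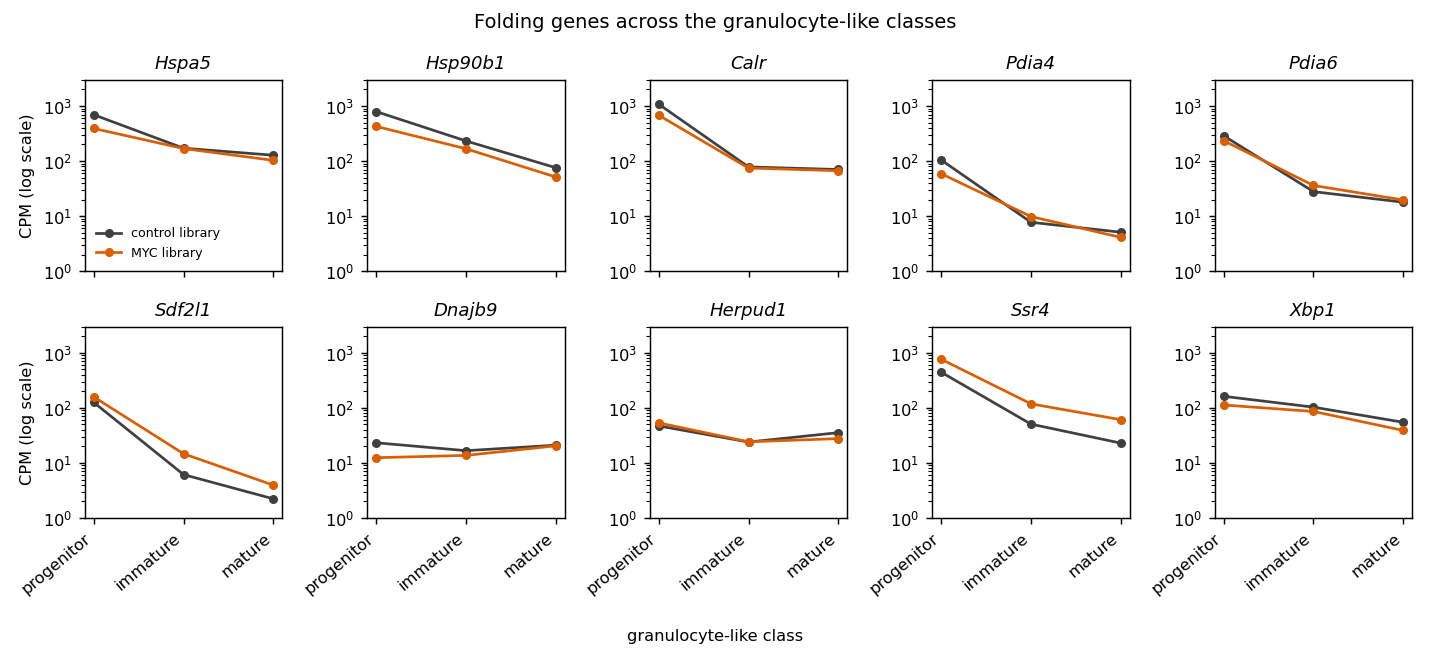
Level of each gene in CPM (log scale) in granulocyte progenitor-like, immature neutrophil-like and mature neutrophil-like cells of the control (dark) and MYC (orange) library; each point is 1 class of 1 library. Calr stands at 1083 and then 78.2 CPM over the first step in the control, while Dnajb9 lies between 12.4 and 23.3 CPM throughout.

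Late and early erythroid-like cells were compared in the same way. From early (281 and 111) to late (1199 and 477) cells, 4 of the 10 genes were at least 2-fold lower in both libraries (Pdia4, Pdia6, Sdf2l1 and Ssr4), where 39.1% of genes tested in the control and 32.5% in MYC marrow were, so the count is near the background. Ssr4 went from 151 to 59.1 CPM in the control and from 362 to 114 in MYC marrow. Hspa5 differed little, with 321 and 277 CPM in the control and 163 and 180 in MYC marrow. The globin gene Hbb-bs took 66992 and 93916 CPM of the late erythroid-like cells. That class was filled differently: a cluster led by Hemgn held 704 control cells and 180 of MYC marrow, and one led by Tmcc2 495 and 297.

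The share of cells with a UMI followed the same order once every cell was thinned to 2000 UMIs, a step that leaves out shallower cells (7 of the control and 4 of the MYC plasma cell-like cells, 386 and 284 of the mature neutrophil-like cells). Xbp1 was found in 82.4% of control plasma cell-like cells (interval 76.9 to 87.0), 26.3% of granulocyte progenitor-like, 9.92% of mature neutrophil-like and 3.38% of late erythroid-like cells. In the MYC library the shares were 69.5%, 19.7%, 6.93% and 5.06%. Without thinning Xbp1 was found in 98.4% of control plasma cell-like and 17.5% of mature neutrophil-like cells. Sdf2l1 was found in 22.3%, 18.7%, 0.598% and 0.845% of the same thinned control classes and in 31.7%, 22.8%, 0.706% and 2.22% in MYC marrow. No class is known to lack these genes, so the lowest class is given in place of a background, and the part of free RNA in the low shares was not tested.

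Other genes of the pathway, 76 in 5 groups, were split in plasma cell-like cells. In the control 32 of the 76 were at least 2-fold above other cells, where 5.3% of all genes tested were, and 7 at least 2-fold lower, where 61.8% were. The median log2 ratio was 0.86 against -1.31 over all genes tested. MYC marrow had 36 higher and 5 lower, where 6.35% and 54.5% of genes tested were. Of 15 degradation genes 8 were higher and none lower in the control, and of 19 other chaperones and co-chaperones 11 were higher and 1 lower. The 12 other disulfide isomerases and oxidases were split, with 4 higher and 6 lower. Among 22 genes of translocation, signal peptide cleavage and glycosylation 6 were higher and 0 lower, and among 8 sensors and their proteases 3 were higher and 0 lower. The count depends on the denominator: with immunoglobulin genes left out of it, 50 of the 76 were at least 2-fold higher in the control. Leaving them out raises the ratio of every gene alike, and the share of all genes past 2-fold was not counted under it.

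Derl3, a channel component of degradation, had the largest ratio, 235 CPM against 1.29 in other control cells and 159 against 0.94 in MYC marrow. Txndc5, a disulfide isomerase, stood at 1268 against 36.8 CPM in the control and 939 against 38.7 in MYC marrow. Creld2, a stress-induced isomerase, came next in the control with 255 against 18.3 CPM, and Fkbp11, a proline isomerase, in MYC marrow with 224 against 11.6. At the other end were the oxidase Qsox1, with 9.65 against 40.1 CPM in the control and 6.21 against 35.8 in MYC marrow, and the membrane thioredoxin Tmx3, with 17.2 against 62.2 and 19.2 against 47.9. Pdia5, a disulfide isomerase, was lowest in the control with 5 UMIs, and Cnpy3, a co-chaperone of Toll-like receptors, was among the lowest in the MYC library with 14.1 against 36.5 CPM.

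In granulocyte progenitor-like cells of the control 20 of the 76 were at least 2-fold above other cells and 3 lower, where 8.8% and 22.4% of genes tested were, with a median log2 ratio of 0.67 against 0.04 over all genes tested. MYC marrow had 7 higher and 4 lower, where 5.62% and 21.3% were. Genes of translocation, signal peptide cleavage and glycosylation held 9 of the 20 in the control and degradation 1. In plasma cell-like cells these groups held 6 and 8 of the 32. The difference in make-up between the classes was not tested. In the same comparisons 12 cytosolic and mitochondrial chaperones had 0 genes at least 2-fold higher in either class of the control, and 11 were at least 2-fold lower in plasma cell-like cells, where 61.8% of genes tested were. Their median log2 ratio there was -1.45, near the -1.31 of all genes.

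The 10 genes did not move as a single block over classes. Across 32 class and library points, Pearson's r of log2 (CPM + 1) was highest between Pdia6 and Sdf2l1 (0.93), Calr and Pdia6 (0.92), Sdf2l1 and Ssr4 (0.92) and Hspa5 and Hsp90b1 (0.91). It was lowest between Dnajb9 and Ssr4 (0.26) and between Calr and Dnajb9 (0.30). Of 10637 other genes, those most like the mean of the 10 over the same points were Hyou1 (r = 0.92), Selenos (0.92), Dnajc3 (0.92), Manf (0.90), Spcs3 (0.89), Spcs2 (0.88), Creld2 (0.88), Erp44 (0.87), Dnajb11 (0.87) and Edem2 (0.86). All but Erp44 were in the list of 76 pathway genes, which held 35 of the 100 genes most alike and had a median r of 0.64, against 0.07 over all genes ranked. The points share libraries, depth and the plasma cell-like values, so these correlations are a description.

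Between the libraries, within a class, the most uniform difference was that of Ssr4. Over classes, the share of all genes tested that were at least 1.5-fold higher in MYC marrow ran from 4.2% to 23.6%, and the share lower from 12.5% to 39.8%. Ssr4 was at least 1.5-fold higher in 15 of 15 classes, where 2.49% of the 1285 genes with at least 50 UMIs in each class were. Its level in plasma cell-like cells was 651 CPM in the control and 1764 in MYC marrow, a log2 difference of 1.44 (interval 1.37 to 1.51). In granulocyte progenitor-like cells it stood at 446 and 768 CPM, a difference of 0.78, the smallest of the 15. The largest was 2.03 in nonclassical monocyte-like cells, from 67.7 to 277 CPM, and the median over classes was 1.26. Ssr4 lies on the X chromosome, and Xist, the RNA of the inactive X, was detected at 716 CPM in the control and 554 in MYC marrow, with 0 UMIs of the Y-linked gene Ddx3y in either.

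The other subunits of the same complex did not follow to that extent. Ssr1 was at least 1.5-fold higher in 0 of 15 classes and lower in 3, Ssr3 was higher in 0 of 15 and lower in 0, and Ssr2 was higher in 4 of 13. Their median log2 differences were -0.09, -0.14 and 0.38. With each library clustered on its own or with other cell filters Ssr4 had at least a 1.5-fold difference in every class compared. The exceptions came with coarser clustering, where late erythroid-like cells had a difference of 0.0016, and with centring on genes of the same transcript length, where 12 of 15 classes had 1.5-fold. Within late erythroid-like cells Ssr4 stood at 53.9 and 132 CPM in the cluster led by Hemgn but at 77.2 and 72.5 in the one led by Tmcc2.

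Sdf2l1 was the other gene mostly above the control. It had at least 50 UMIs in 13 classes, was higher by any size in all 13 and at least 1.5-fold higher in 8, with a median log2 difference of 0.64. Of the 1285 genes with at least 50 UMIs in all 15 classes, which leave out Sdf2l1, 18.2% were higher by any size in every class. The 8 classes of Sdf2l1 came to 2 on centring by transcript length, to 4 when the 20 most abundant genes were left out of the totals and to 5 at the coarser clustering. The levels were 153 CPM in control plasma cell-like cells and 250 in those of MYC marrow (difference 0.71, interval 0.54 to 0.88). In granulocyte progenitor-like cells they were 127 and 159 CPM (0.33), and in immature neutrophil-like cells 6.14 and 14.7 (1.26). The last class was filled differently: its cluster led by Ltf held 1666 of the 2700 control cells and 721 of the 1972 of MYC marrow. Sdf2l1 was higher in MYC marrow within each of the 4 clusters of that class, with 5.92 and 12.4 CPM in the one led by Chil3 and 22.1 and 41.4 in the one led by Fcnb. Its direction turned under other settings in mature B cell-like cells (lowest value -0.11) and late erythroid-like cells (-0.38). Its partner Dnajb11 was at least 1.5-fold higher in 0 of 13 classes (median 0.15), and its paralog Sdf2 in 2 of 13 (median 0.11).

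Of the chaperones, Hsp90b1 was below the control in 15 of 15 classes, where 13.3% of the 1285 genes were lower by any size in every class, and it was at least 1.5-fold lower in 7. Of these 7, T or NK cell-like cells came to -0.55 and megakaryocyte-like cells to -0.11 under an alternative, short of 1.5-fold. The level of Hsp90b1 in plasma cell-like cells was 2831 CPM in the control and 1586 in MYC marrow, a log2 difference of -0.84 (interval -0.89 to -0.78). In granulocyte progenitor-like cells it went from 794 to 427 CPM (-0.90), and in mature B cell-like cells from 411 to 147 CPM (-1.48), the largest difference of the 15. With the mean over cells in place of summed UMIs late erythroid-like cells had a difference of 0.07, which turned its direction there. Within IgM plasma cell-like cells Hsp90b1 was 3217 per 1000000 non-immunoglobulin UMIs in the control and 1854 in MYC marrow, and within gamma cells 7795 and 4869, while the few alpha cells (2 and 5) had 2853 and 4058.

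Hspa5 was at least 1.5-fold lower in 6 of 15 classes and below the control by less in 8. It went from 695 to 392 CPM in granulocyte progenitor-like cells (-0.83, but -0.36 with only cells under 5% mitochondrial UMIs), from 868 to 452 CPM in basophil or mast cell-like cells (-0.94) and from 321 to 163 CPM in early erythroid-like cells (-0.98). In stem or multipotent progenitor-like cells it was 419 and 409 CPM and in immature neutrophil-like cells 171 and 169, and in nonclassical monocyte-like cells it was higher, 196 and 209 CPM, each with an interval that spanned 0. Clusters of immature neutrophil-like cells went opposite ways, from 196 to 296 CPM in the one led by Ltf, which held more of the control cells, and from 209 to 166, 160 to 148 and 125 to 113 in the other 3. Under median-of-ratios scaling or centring on transcripts of the same length 3 classes passed. Calr was at least 1.5-fold lower in granulocyte progenitor-like cells (1083 and 682 CPM, -0.67) and in no other class, and there it came to -0.18 with only cells under 5% mitochondrial UMIs and -0.36 under median-of-ratios scaling. It was higher in stem or multipotent progenitor-like cells, 861 and 1042 CPM, by 0.28, though with at least 1000 UMIs and 500 genes asked of a cell the difference was -0.20.

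The remaining genes were mixed. Dnajb9 was at least 1.5-fold lower in 5 of 13 classes, among them plasma cell-like cells, where it went from 134 to 65.0 CPM, a log2 difference of -1.04 (interval -1.34 to -0.76). Its value in mature B cell-like cells rests on 55 UMIs in the control and 5 in MYC marrow. In granulocyte progenitor-like cells it came to -0.43 under an alternative, short of 1.5-fold. Pdia4 was lower in 3 of 13 and Pdia6 in 0 of 15, and neither was higher in any. Each of the 3 Pdia4 differences missed 1.5-fold under some alternative: granulocyte progenitor-like cells came to -0.30 with only cells under 5% mitochondrial UMIs, basophil or mast cell-like cells to -0.45 under median-of-ratios scaling, and late erythroid-like cells turned to 0.47 as a mean over cells. Pdia6 in plasma cell-like cells was 269 CPM in the control and 339 in MYC marrow, a difference of 0.34, while in granulocyte progenitor-like cells it went from 289 to 235 CPM, a difference of -0.30. Both directions of Pdia6 turned under other settings: to -0.18 in plasma cell-like cells when the 20 most abundant genes were left out of the totals, and to 0.33 in granulocyte progenitor-like cells with only cells under 5% mitochondrial UMIs (0.0082 under median-of-ratios scaling). Xbp1 was at least 1.5-fold lower in 2 of 14 classes, plasmacytoid dendritic cell-like cells (216 and 111 CPM) and mature B cell-like cells (58.8 and 38.7), though as a mean over cells the latter had a difference of 0.10. For plasma cell-like cells it went from 987 to 676 CPM, a difference of -0.55, short of 1.5-fold. Herpud1 was at least 1.5-fold higher in 3 of 14 classes and lower in 1, and 2 of these 4 did not reach 1.5-fold under an alternative (late erythroid-like cells at the coarser clustering, 0.44, and T or NK cell-like cells with called doublets kept, -0.50).

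By class, granulocyte progenitor-like cells had 1 gene at least 1.5-fold higher (Ssr4), where 4.2% of genes tested were, and 5 at least 1.5-fold lower (Hspa5, Hsp90b1, Calr, Pdia4 and Dnajb9), where 26.1% were. Plasma cell-like cells had 2 higher (Sdf2l1 and Ssr4), where 19.8% of genes tested were, and 2 lower (Hsp90b1 and Dnajb9), where 16.9% were. The 5 lower genes of granulocyte progenitor-like cells came to 2 under median-of-ratios scaling, and leaving the 20 most abundant genes out of the denominator gave 1 higher and 6 lower in plasma cell-like cells. Both settings shift all genes of a class alike, and the shares of all genes under them were not counted. Over all classes 142 pairs of a gene and a class had at least 50 UMIs. Of these 26 (18.3%) were at least 1.5-fold higher and 25 (17.6%) lower, where 10.9% and 20% of all such pairs over all genes were, so the share of lower pairs is near the background. Ssr4 and Sdf2l1 gave 23 of the 26 higher pairs. The higher pairs came to 17 on centring by transcript length, and the lower pairs to 16 under median-of-ratios scaling.

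**Figure D4:**
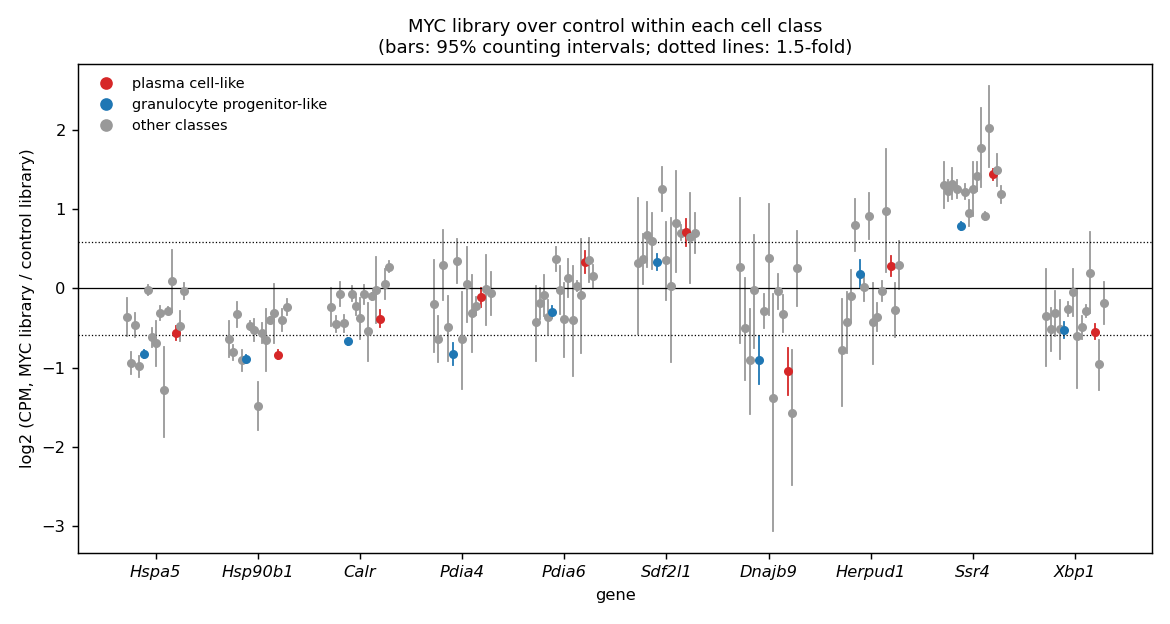
Log2 ratio of CPM in the MYC library over the control (vertical axis) for each gene (horizontal axis) and cell class; bars are 95% counting intervals, dotted lines mark 1.5-fold, and plasma cell-like and granulocyte progenitor-like cells are in red and blue. The lowest of the 15 points of Ssr4 lies at 0.78, and all 15 of Hsp90b1 lie below 0.

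The libraries also differed by transcript length over all genes, and this moved with the differences above. Over the 15 classes the median log2 ratio of MYC to control was between 0.25 and 0.83 for genes with transcripts up to 1000 bases (median over classes 0.44), and between -1.08 and -0.22 for those over 4000 bases (median -0.39). The transcripts of Ssr4 (765 bases) and Sdf2l1 (1108 bases) are the shortest of the 10, and those of Hsp90b1 (2825 bases) and Hspa5 (3672 bases) the longest. Relative to the median of genes in the same length bin, Ssr4 was above in 15 of 15 classes (median 0.83), Sdf2l1 above in 13 of 13 (0.33) and Hsp90b1 below in 15 of 15 (-0.39). Hspa5 was below in 12 and above in 3 of 15. The part of transcript length in the differences between the libraries was not tested further.

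**Figure D5:**
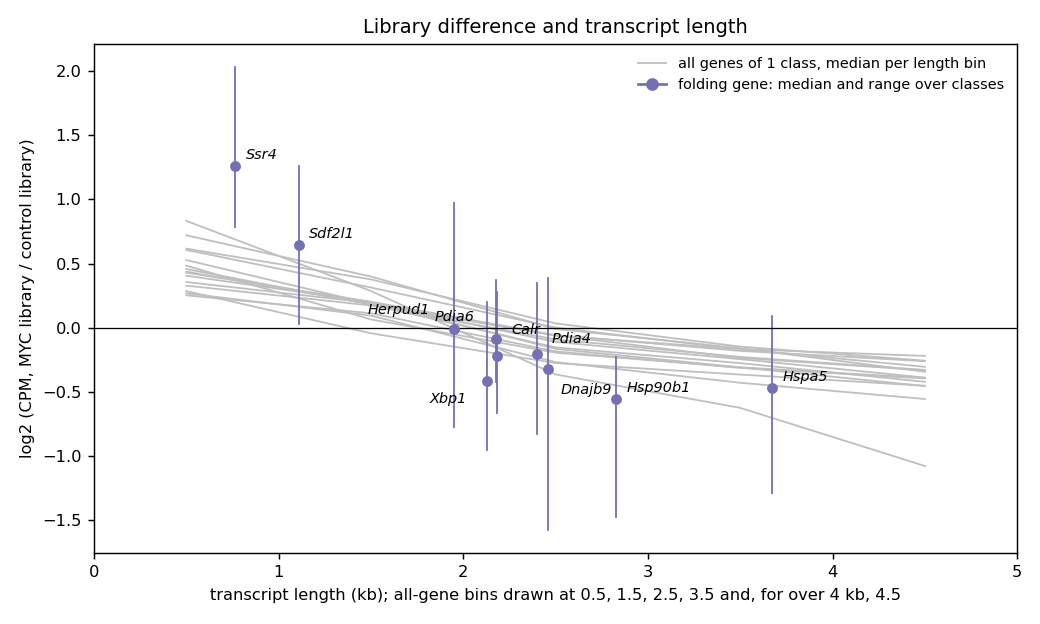
Log2 ratio of CPM in the MYC library over the control (vertical axis) against transcript length in kilobases (horizontal axis); grey lines are medians of all genes per length bin, 1 line per class, and purple points with bars are the median and range of each folding gene over classes. The grey lines run down from short to long transcripts, Ssr4 lies above them at 1.26, and Hsp90b1 lies low at -0.56.

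The other pathway genes were compared between the libraries as well. In plasma cell-like cells 16 of 73 pathway genes with at least 50 UMIs were at least 1.5-fold higher, where 19.8% of genes tested were, and 8 lower, where 16.9% were, with a median of 0.03 against 0.02 over all genes tested. Fkbp11 went from 92.2 to 224 CPM and Cnpy2, a co-chaperone, from 109 to 263, while Stt3b, a subunit of the glycosylation enzyme, went from 115 to 51.4 and Creb3l2, a stress sensor of the membrane, from 103 to 53.1. In granulocyte progenitor-like cells 1 of 75 was at least 1.5-fold higher, where 4.2% were, and 18 lower, where 26.1% were, with a median of -0.38 against -0.31 over all genes tested. The 18 came to 33 under separate clustering of the libraries, 7 under median-of-ratios scaling and 3 on centring by transcript length. The share of all genes was not counted under these settings. Fkbp11 was the higher gene, from 33.1 to 53.0 CPM, and the lowest ratios were those of Uggt1, the glycoprotein folding sensor, from 110 to 51.5, and Hyou1, a large Hsp70 chaperone, from 75.1 to 36.4. Prdx4, a peroxidase, had the next highest ratio with an interval that spanned 0 (-0.08 to 1.23). Of 6 measured genes of the Atf4 branch in granulocyte progenitor-like cells 4 were at least 1.5-fold higher, where 4.2% of all genes tested were, and 0 lower, where 26.1% were. Atf4 itself stood at 90.4 CPM in the control and 147 in MYC marrow, and Ddit3, a stress factor downstream of it that did not pass 1.5-fold, at 10.6 and 14.5. In plasma cell-like cells neither passed: Atf4 stood at 116 and 141 CPM (log2 difference 0.28) and Ddit3 at 21.6 and 22.6 (0.07). The Atf4 branch was not recounted under the alternatives.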

How the data were processed

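The deposited tables hold unnormalized UMI counts, 1 whole number for a gene in a barcode, and per the file headers the authors ran Cell Ranger 6.0.0; the submitters' processing notes name GRCm38, mm10 and Seurat. Libraries used the 3′ kit of the Chromium system, per the labels' protocols. Barcodes needed 500 UMIs, 200 genes and a mitochondrial share under 10%; the last removed 1609 control barcodes and 1600 of the MYC library. Scrublet (scanpy 1.11.5) marked doublets above a score of 0.2, a value set after its automatic threshold marked 0 cells of the MYC library: 3.61% of control and 2.76% of MYC library cells were removed. Both libraries were clustered together (Leiden, resolution 1, 15 neighbours, 30 principal components, 2000 variable genes), leaving out the genes of all lists. A cluster took the name of the type with the highest marker score among 20 types if at least 3 markers were detected and its 10 leading genes did not favour another type; clusters whose median UMIs were under 33.3% of their library's stayed unnamed, which was decided with the data in view. The conventional dendritic cell-like cluster had Mrc1, a macrophage marker, among its leading genes.

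UMIs were summed per class and library and divided by the class total (CPM), with exact Poisson intervals, exact conditional binomial intervals for ratios and Clopper-Pearson intervals for shares of cells. With 1 library per group there was no test: a difference was counted at 1.5-fold between libraries (at least 50 UMIs) and 2-fold between classes, beside the share of all genes that passed. The fold calls and ratio intervals were checked on Poisson counts simulated from granulocyte progenitor-like means. Filters, doublets, clustering, naming and variation between libraries were not checked in this way. Gene positions and transcript lengths are from GENCODE vM21 (GRCm38), promoters from RefSeq (GRCm38.p6). The members and lists were chosen with earlier results of these data known. All 10 members are named; of the pathway list, the 3 largest and 3 smallest ratios in plasma cell-like cells and the 2 largest and 2 smallest between libraries in both classes described at length (at least 50 UMIs), and the 10 genes most correlated with the members (at least 500 UMIs). Other pathway genes were named after their values were seen. Alternatives covered cell filters, doublets, clustering, scaling, low counts and thinning.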

Additional observations from a re-analysis of the deposited data

Results flagged for a closer look

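Herpud1, the degradation scaffold, moved in opposite directions in different classes between the libraries. On the log2 scale it was 0.80 higher in the MYC library in early erythroid-like cells (22.7 and 39.7 CPM), 0.92 higher in late erythroid-like cells (19.9 and 37.6 CPM) and 0.98 higher in nonclassical monocyte-like cells (39.1 and 77 CPM). In T or NK cell-like cells it went from 48.1 to 28.1 CPM and the difference was -0.78 (interval -1.48 to -0.13). With 1 library per group the difference between the classes was not tested. In nonclassical monocyte-like cells the value rests on 26 and 35 UMIs. Late erythroid-like cells had medians of 10024 and 5175 UMIs and came from 2 clusters in unlike shares. Herpud1 stood at 15.8 and 33.4 CPM in the cluster led by Hemgn and at 34.6 and 47.8 in the one led by Tmcc2, the latter short of 1.5-fold. At the coarser clustering the difference in late erythroid-like cells was 0.44, and with called doublets kept that in T or NK cell-like cells was -0.50, both short of 1.5-fold.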

How the results depend on the processing

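No paired analysis was possible because each group has 1 library and the result comes from no test. Of 1634 values of a single gene between the libraries under an alternative, 106 were counted with the other sign, in 45 of 142 pairs of a gene and a class. Among them is Pdia6 in basophil or mast cell-like cells under median-of-ratios scaling. Its value of 3.6e-16 is 0 up to rounding and no true turn, and it is the only one of its pair. Some turns come from scalings that shift all genes of a class, or of a length bin, alike, and these were not separated. Among pairs at least 1.5-fold apart as reported, 2 turned: with the mean over cells, Pdia4 in late erythroid-like cells was 0.47 and Xbp1 in mature B cell-like cells 0.10. With cells under 5% mitochondrial UMIs the granulocyte progenitor-like class lost its cells above that share and took in Fcnb-rich cells. Which of these changes moved the values was not tested. There Hspa5 over other cells of the control was -0.049, Pdia4 -0.44 and Calr of the MYC library -0.045. Members at least 2-fold above other cells numbered 2 in the control and 0 in MYC marrow, and 2 were at least 1.5-fold lower than the control. With each library clustered on its own 2 members were at least 2-fold above other cells in granulocyte progenitor-like cells of the MYC library, and 33 pathway genes at least 1.5-fold lower. At resolution 0.5, 3 members were lower in that class and Sdf2l1 was 1.5-fold higher in 5 classes; 12 classes could be compared at either setting and 14 at resolution 2.

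Under median-of-ratios scaling 61 pathway genes were at least 2-fold higher in control plasma cell-like cells, 2 members and 7 pathway genes lower in granulocyte progenitor-like cells, 16 pairs lower and Hspa5 lower in 3 classes. Without immunoglobulin in the denominator 50 pathway genes were higher in control plasma cell-like cells, and without the 20 most abundant genes 53; the latter gave 1 member and 4 pathway genes higher and 6 members lower between the libraries in plasma cell-like cells, and Sdf2l1 higher in 4 classes. Centring on transcripts of the same length, an alternative added after seeing the data, gave 61 pathway genes higher in control plasma cell-like cells, 1 member and 9 pathway genes higher there between the libraries, 2 members and 3 pathway genes lower in granulocyte progenitor-like cells, 17 pairs higher, Sdf2l1 higher in 2 classes and Hspa5 lower in 3. Each of these scalings moves all genes of a comparison, or of a length bin, by the same amount. The share of all genes past the fold was not counted under them, so the shares given above do not apply to these counts. Beyond that, the cause of the moves was not tested. Thinned to 1000 UMIs, Xbp1 was found in 54.5% of control plasma cell-like and 6.34% of mature neutrophil-like cells and Hspa5 in 57.4% and 11.9%; without thinning the shares were 98.4%, 17.5%, 98.0% and 36.2%. The depth limits Dnajb9, Sdf2l1 and Pdia4 in megakaryocyte-like and nonclassical monocyte-like cells and Herpud1 and Xbp1 in the former, with under 50 UMIs of each.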
